A study of Rattus norvegicus with 74 samples.

Results

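The genes described here are 10 enzymes of the urea cycle and of amino acid breakdown in liver: Cps1, Otc, Ass1, Asl, Arg1, Glul, Gls2, Tat, Sds and Hal. They were chosen by name, from their role in nitrogen disposal, but with earlier results of these data known. Every probe set of the array that is annotated to a single gene and names a member was taken. That gave 14 probe sets of 31042 and 10 genes of 14217 with such a probe set. Cps1 has 2 probe sets, Asl has 2, Glul has 3 and each other member has 1.

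Liver breaks down surplus amino acids and turns the ammonia that is set free into urea, which the kidney excretes. The enzymes of the urea cycle, the liver glutaminase Gls2 and the amino acid degrading enzymes Hal and Sds are known to be most abundant in hepatocytes near the portal vein. Glutamine synthetase, Glul, is found in a rim of hepatocytes around the central vein, where it takes up the ammonia that escaped urea synthesis. Several of these genes respond to glucocorticoids, glucagon and feeding, and Tat is a classic example.

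RNA from liver of Wistar Han rats (Crl:WI(Han)) at postnatal day 22 was measured on 74 Affymetrix rat arrays in 15 groups. All rats were dosed by oral gavage, and the sex of the pups is not given in the sources used here. BDE-47 (labelled PBDE-47), a single brominated diphenyl ether, and DE-71, a commercial mixture of such ethers, were each given at 0, 0.1, 15 and 50 mg/kg, with dams dosed on gestation days 6 to 21 and their pups on postnatal days 12 to 21. Phenobarbital, a drug that activates the nuclear receptor CAR, was given at 0, 5 and 45 mg/kg. PCB126, a dioxin-like biphenyl that activates the aryl hydrocarbon receptor, is labelled 0, 10, 50 and 250, with mg/kg as the stated and here unchecked unit. For phenobarbital and PCB126 no dosing period of their own is given, and the labels name no litter. The 0 mg/kg group of each agent was its control, and what it received in place of the agent is not named.

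Each group had 5 arrays, except DE-71 50 mg/kg with 4 (replicates 2 to 5). Among 656 same-agent array pairs, 4 differed far less than the others, and 2 of these lay within a group (BDE-47 0 mg/kg replicates 3 and 4, DE-71 15 mg/kg replicates 1 and 2). Each of the latter was averaged and counted as 1 sample, since its arrays may be the same animal, which leaves 72 samples and n = 4 in those groups. In the other 2 pairs an array labelled 15 mg/kg nearly matched one labelled 50 mg/kg (BDE-47 replicates 3 and 3, DE-71 replicates 5 and 4), so results at these doses are also given without them where that ends a call. DE-71 50 mg/kg replicate 2 correlated least with its group (mean r = 0.9798), close to the next lowest arrays at 0.9813 and 0.9821 (BDE-47 0.1 mg/kg replicates 5 and 2), with a range up to 0.9945, and counts of calls and the members' calls at that dose are given with and without it.

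Values are log2 expression. A difference was called when its p-value from limma, adjusted by Benjamini and Hochberg over all 31042 probe sets, was below 0.05, and "rose" and "fell" are used of called differences only. Gene counts use the probe set of each gene with the highest mean. In bulk tissue, fewer cells of a type and less RNA per cell cannot be told apart.

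Every called difference of a member was a fall, and every one was at phenobarbital 45 mg/kg, BDE-47 15 and 50 mg/kg or DE-71 50 mg/kg. Asl is counted in this paragraph by a probe set whose target is uncertain, and its other probe set was called in no comparison. At phenobarbital 45 mg/kg 3 of 10 members fell, Hal, Glul and Asl, where 1.01% of all genes fell. At BDE-47 15 mg/kg 2 fell, Hal and Ass1, where 0.169% of all genes fell, and at 50 mg/kg 4 fell, Hal, Ass1, Glul and Asl, against 1.32% of all genes. At DE-71 50 mg/kg 5 fell, Cps1, Gls2, Hal, Ass1 and Asl, against 4.23% of all genes. Without replicate 2 of that group 2 members were called, Cps1 and Gls2, against 0.753% of all genes. With only the DE-71 samples in the fit, 0 of the 10 were called by limma at that dose, where the fit of all samples called 5. The share of all genes called in that narrower fit is not given here. A general loss of calls therefore cannot be told apart from a loss among the members.

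At DE-71 15 mg/kg limma called 0 members (0.134% of all genes fell and 0.774% rose), with 4 lower and 1 higher at an unadjusted p below 0.05. It also called 0 members at phenobarbital 5 mg/kg (0.00703% of all genes fell), at PCB126 10, 50 and 250 (0.0% fell in each) and at 0.1 mg/kg of BDE-47 or DE-71 (0.0% in each), with 0 at an unadjusted p below 0.05 in each of these 6 comparisons. The median log2 fold change over the 10 members was -0.45 at phenobarbital 45 mg/kg, where the median over all genes was -0.02. It was -0.38 and -0.6 at BDE-47 15 and 50 mg/kg and -0.26 and -0.47 at DE-71 15 and 50 mg/kg, the last -0.42 without replicate 2. The medians over all genes there were -0.02, -0.02, -0.02 and 0.0, the last -0.01 without replicate 2. Negative differences were found for 9, 10, 9, 7 and 10 of the 10 members in these 5 comparisons, in the same order. At phenobarbital 5 mg/kg and PCB126 10, 50 and 250 the counts were 4, 4, 6 and 7. They were 4 and 3 at 0.1 mg/kg of BDE-47 and DE-71. DE-71 15 mg/kg thus had as many as PCB126 250, where the members' median was -0.05. The share of all genes with a negative difference is not given here.

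**Figure D1:**
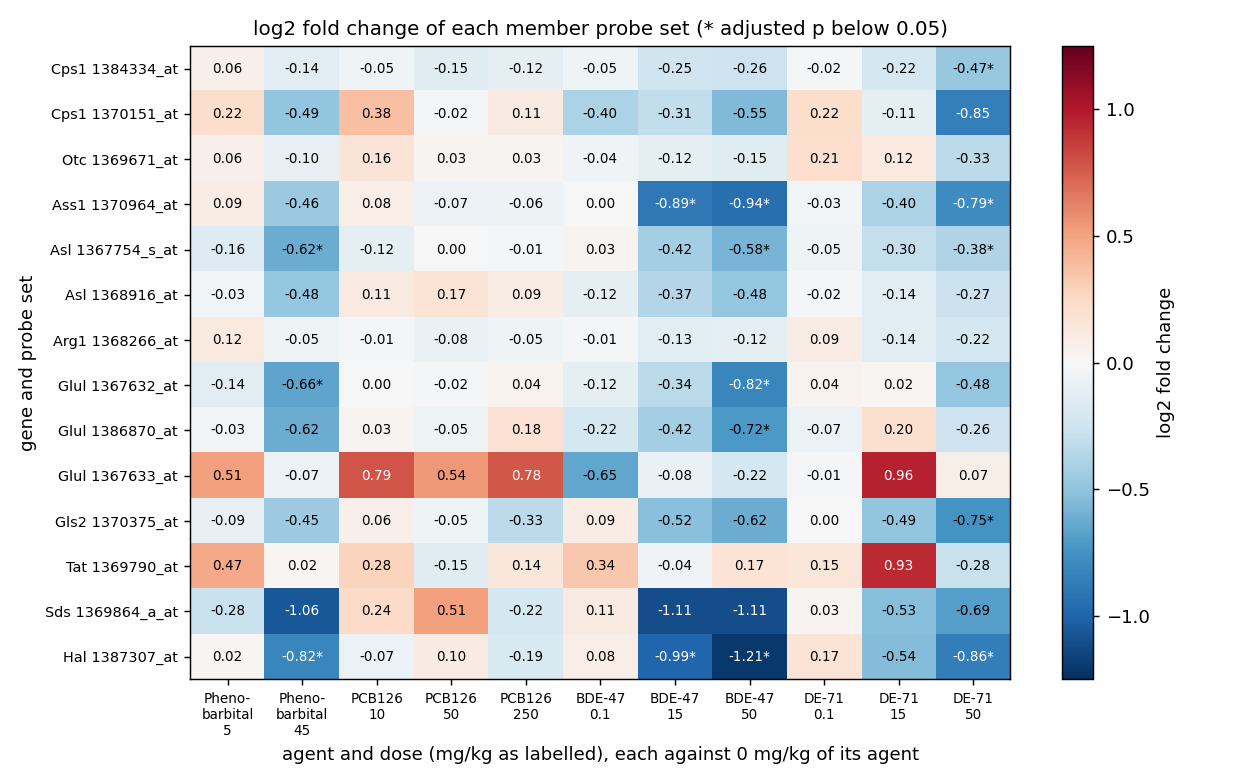
Log2 fold change of the 14 member probe sets (rows) in 11 comparisons of a dose with 0 mg/kg of its agent (columns), with an asterisk where the adjusted p was below 0.05. The asterisks stand on blue cells at phenobarbital 45, BDE-47 15 and 50 and DE-71 50 mg/kg, and Hal is marked in all 4 of these columns.

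Hal, histidine ammonia-lyase, removes the amino group of histidine in the first step of its breakdown, and it was called in more comparisons than any other member. In the 4 BDE-47 control samples it stood at 8.72, 8.27, 8.78 and 9.41. At 15 mg/kg it stood at 7.17, 7.81, 7.79, 8.23 and 8.04, and at 50 mg/kg at 8.06, 7.74, 7.78, 7.29 and 7.06. All 10 samples of both doses lay below the lowest control, though replicate 3 of each dose are a near-identical pair and may be the same animal. The log2 fold change was -0.99 (SE 0.23, adjusted p = 0.025) at 15 mg/kg and -1.21 (SE 0.23, interval -1.67 to -0.74, adjusted p = 0.00054) at 50 mg/kg, where the level was 43.3% of the control level. The fall at 50 mg/kg was called in all 9 fits that left out 1 sample. That at 15 mg/kg was not called in 5 of 9, without 0 mg/kg replicate 1, 5 or the averaged 3 and 4 (adjusted p = 0.063, 0.16 and 0.096) and without 15 mg/kg replicate 1 or 3 (0.12 and 0.072), nor without the 4 arrays of the pairs that join 15 and 50 mg/kg (-0.98, adjusted p = 0.08).

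Under phenobarbital 45 mg/kg Hal stood at 8.2, 7.33, 8.39, 8.0 and 7.68, against 8.58, 8.89, 8.92, 8.52 and 8.81 in its controls. The groups did not overlap, and the log2 fold change was -0.82 (SE 0.22, adjusted p = 0.033), or 56.4% of the control level. It was called in 3 of 10 fits that left out 1 sample. The call ended without 0 mg/kg replicate 1, 2, 3 or 5 (adjusted p = 0.05, 0.088, 0.09 and 0.072, the first just above 0.05 before rounding) and without 45 mg/kg replicate 2, 4 or 5 (0.18, 0.051 and 0.11). At 5 mg/kg its mean was 8.76 ± 0.22 (SD, n = 5), beside a control mean of 8.75 ± 0.18.

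DE-71 50 mg/kg gave Hal values of 7.35, 7.81, 7.94 and 7.66, against 8.78, 8.33, 8.28, 9.08 and 8.28 in the DE-71 controls. Again the groups did not overlap (log2 fold change -0.86, SE 0.23, adjusted p = 0.016). Without 50 mg/kg replicate 2 the difference was -0.75 and not called (adjusted p = 0.15), nor was it without 0 mg/kg replicate 4 (-0.73, adjusted p = 0.064). At DE-71 15 mg/kg it was -0.54 (interval -1.0 to -0.07, adjusted p = 0.5). The 4 PCB126 groups had Hal means from 8.6 ± 0.47 at 250 to 8.9 ± 0.43 at 50, with a control mean of 8.79 ± 0.4, and overlapped.

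**Figure D2:**
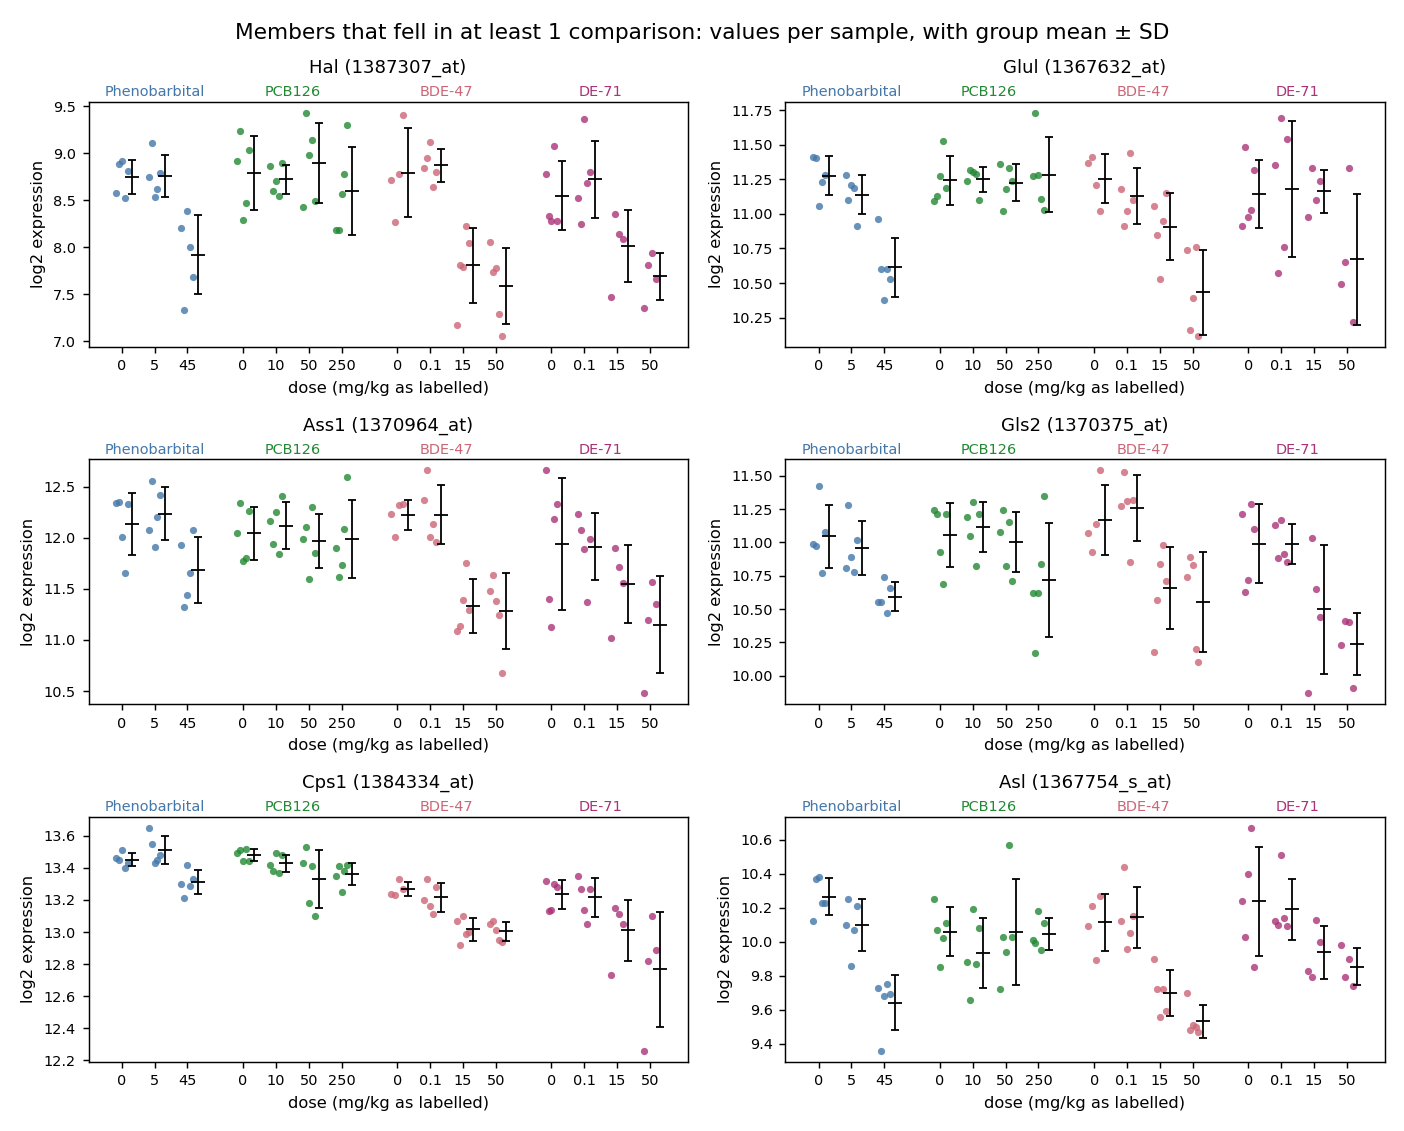
Log2 expression of Hal, Glul, Ass1, Gls2, Cps1 and Asl (panels, by their highest-mean probe set) in each sample, by agent and dose, with black lines at the group mean ± SD. Hal at BDE-47 15 and 50 mg/kg lies between 7.06 and 8.23, below all 4 control samples of that agent.

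In the urea cycle, Ass1 (argininosuccinate synthase), which joins citrulline with aspartate, showed the largest log2 fold changes of the 5 cycle enzymes by their highest-mean probe set at BDE-47 15 and 50 mg/kg. Its values were 12.23, 12.01, 12.32 and 12.33 in the BDE-47 controls and 11.09, 11.14, 11.39, 11.75 and 11.29 at 15 mg/kg. At 50 mg/kg they were 11.48, 11.64, 11.38, 11.24 and 10.68. Both dose groups lay wholly below the controls. The log2 fold change was -0.89 at 15 mg/kg (SE 0.23, adjusted p = 0.047) and -0.94 at 50 mg/kg (SE 0.23, adjusted p = 0.0097), or 53.9% and 52.1% of the control level.

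The Ass1 call at 15 mg/kg was fragile: it ended in 8 of 9 fits that left out 1 sample, every one but that without 15 mg/kg replicate 4 (log2 fold change -1.0 to -0.83, adjusted p = 0.061 to 0.19, the highest without the averaged 0 mg/kg replicates 3 and 4). It also ended without the 4 arrays of the cross-dose pairs (-0.91, adjusted p = 0.11). At 50 mg/kg it ended in 1 of 9, without replicate 5 (-0.79, adjusted p = 0.066). The DE-71 controls themselves ran from 11.13 to 12.66 for Ass1, wider than those of the other agents. DE-71 50 mg/kg gave 10.48, 11.2, 11.57 and 11.35 and overlapped them, with a log2 fold change of -0.79 (SE 0.23, adjusted p = 0.023). Without 50 mg/kg replicate 2, the lowest of these, it was -0.57 (adjusted p = 0.3), and the call also ended without 0 mg/kg replicate 1, 4 or 5 (-0.61, -0.73 and -0.7, adjusted p = 0.11, 0.057 and 0.083). Phenobarbital 45 mg/kg stood at -0.46 (interval -0.88 to -0.03, adjusted p = 0.43).

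Cps1, carbamoyl phosphate synthetase, fixes free ammonia in the mitochondrion and starts the cycle. By its brighter probe set, 1384334_at, which is assigned to Cps1 by the annotation through an expressed sequence tag, it stood at 13.32, 13.13, 13.14, 13.3 and 13.28 in the DE-71 controls and at 12.26, 12.82, 13.1 and 12.89 at 50 mg/kg. The groups did not overlap, and replicate 2 at 12.26 was the lowest of all samples. The log2 fold change of -0.47 (SE 0.09, adjusted p = 0.00017) became -0.3 without that replicate (adjusted p = 0.025), and it was called in all 9 fits that left out 1 sample. It was not called with only the DE-71 samples in the fit. The SD was 0.36 at 50 mg/kg and 0.09 in these controls, while the SE rests on the spread of all 15 groups. At BDE-47 15 and 50 mg/kg the 10 samples, from 12.92 to 13.1, also lay below the 4 controls, from 13.23 to 13.33, with log2 fold changes of -0.25 and -0.26 that were not called (adjusted p = 0.25 and 0.11). At PCB126 250 all 5 samples (13.25 to 13.42) lay below all 5 controls (13.44 to 13.52), by -0.12 (adjusted p = 0.9).

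The second Cps1 probe set, 1370151_at, was called in 0 comparisons (limma, with 1 at an unadjusted p below 0.05) and stood at -0.49 at phenobarbital 45 mg/kg, -0.55 at BDE-47 50 mg/kg and -0.85 at DE-71 50 mg/kg (SE 0.31 to 0.33, adjusted p = 0.64, 0.56 and 0.12). It was called at DE-71 50 mg/kg without replicate 4 (-1.09, adjusted p = 0.041). Its spread within groups was wider, from 10.6 to 12.02 in the 4 samples at DE-71 50 mg/kg.

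Asl, argininosuccinate lyase, splits argininosuccinate into arginine and fumarate. The brighter of its probe sets, 1367754_s_at, carries the Asl symbol in the annotation, but the accession listed with it belongs to Hnrnpab, a gene of an RNA-binding protein, in RefSeq. What this probe set measures is therefore uncertain, and the other, 1368916_at, whose accession is Asl's, stands beside it here.

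By 1367754_s_at the controls of phenobarbital stood at 10.12, 10.37, 10.38, 10.23 and 10.23 and the 45 mg/kg samples at 9.73, 9.36, 9.68, 9.75 and 9.69, without overlap (log2 fold change -0.62, SE 0.11, adjusted p = 0.00036). At BDE-47 50 mg/kg the 5 samples, from 9.47 to 9.7, lay below the 4 controls, from 9.89 to 10.27 (-0.58, SE 0.12, adjusted p = 0.0018). Both calls held in every fit that left out 1 sample. At DE-71 50 mg/kg the groups overlapped, and the fall of 0.38 log2 units (adjusted p = 0.046) was not called in 7 of 9 such fits. These were the fits without 50 mg/kg replicate 2, 3, 4 or 5 (adjusted p = 0.099, 0.082, 0.05 and 0.12) or without 0 mg/kg replicate 1, 3 or 4 (0.072, 0.099 and 0.2), and the call also ended without the 4 arrays of the cross-dose pairs (0.058).

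By 1368916_at the differences were -0.48 at phenobarbital 45 mg/kg, -0.48 at BDE-47 50 mg/kg and -0.27 at DE-71 50 mg/kg (SE 0.18, 0.19 and 0.19), none called (adjusted p = 0.22, 0.21 and 0.48).

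Arg1, arginase, which releases urea, moved little. It stood at 13.35, 13.16, 13.16, 13.21 and 13.24 in the DE-71 controls and at 12.87, 13.07, 13.05 and 13.01 at 50 mg/kg. These groups did not overlap, but the difference of -0.22 (interval -0.38 to -0.07) was not called (adjusted p = 0.079). At BDE-47 50 mg/kg it was -0.12 and at phenobarbital 45 mg/kg -0.05 (intervals -0.27 to 0.04 and -0.2 to 0.09).

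Otc, ornithine transcarbamylase, which makes citrulline, was also called nowhere. Its log2 fold changes were -0.1 at phenobarbital 45 mg/kg, -0.15 at BDE-47 50 mg/kg and -0.33 at DE-71 50 mg/kg (interval -0.64 to -0.03, adjusted p = 0.22). The DE-71 50 mg/kg samples stood at 11.46, 11.83, 12.14 and 12.27, of which the first, replicate 2, lay below all other samples.

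Glul and Gls2 catalyse opposite reactions, the making of glutamine from glutamate and ammonia and its hydrolysis. By its brightest probe set, 1367632_at, Glul stood at 11.37, 11.41, 11.21 and 11.02 in the BDE-47 controls and at 10.74, 10.16, 10.39, 10.76 and 10.12 at 50 mg/kg. All samples at 50 mg/kg lay below all controls (log2 fold change -0.82, SE 0.17, adjusted p = 0.0014), and the call held in all 9 fits that left out 1 sample. At 15 mg/kg the groups overlapped (-0.34, adjusted p = 0.52).

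Phenobarbital 45 mg/kg gave Glul values of 10.96, 10.6, 10.38, 10.6 and 10.53, against 11.41, 11.4, 11.06, 11.23 and 11.28 in the controls. The groups did not overlap (-0.66, SE 0.16, adjusted p = 0.012), and the call ended in 1 of 10 fits, without 45 mg/kg replicate 3 (-0.6, adjusted p = 0.053). At DE-71 50 mg/kg 3 samples stood at 10.49, 10.65 and 10.22, below the controls of 10.91 to 11.48, and replicate 4 at 11.33 among them. The difference was -0.48 (interval -0.81 to -0.14, adjusted p = 0.08). Replicate 4 is the array that nearly matches DE-71 15 mg/kg replicate 5, and without it the difference was -0.7 (adjusted p = 0.0044).

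The 4 PCB126 groups had Glul means from 11.23 to 11.29. The 3 Glul probe sets did not give the same differences. At BDE-47 50 mg/kg 1386870_at fell by 0.72 (SE 0.19, adjusted p = 0.026) and lost that call in 6 of 9 fits that left out 1 sample. These were without 0 mg/kg replicate 1, 2 or the averaged 3 and 4 (adjusted p = 0.066, 0.13 and 0.071) and without 50 mg/kg replicate 2, 3 or 5 (0.076, 0.05 and 0.082). At phenobarbital 45 mg/kg this probe set stood at -0.62 (adjusted p = 0.07), and at -0.82 without 0 mg/kg replicate 3 (adjusted p = 0.0046). The dimmest, 1367633_at, stood at -0.22 and -0.07 in these comparisons, with an SE of 0.65 and 0.61.

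Gls2, the liver glutaminase, stood at 11.21, 10.63, 10.72, 11.29 and 11.1 in the DE-71 controls and at 10.23, 10.41, 10.4 and 9.91 at 50 mg/kg. The groups did not overlap. The log2 fold change was -0.75 (SE 0.18, adjusted p = 0.0065), or 59.5% of the control level, and it was again -0.75 without replicate 2 (adjusted p = 0.036). It was called in all 9 fits that left out 1 sample, but not with only the DE-71 samples in the fit.

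At BDE-47 50 mg/kg Gls2 samples from 10.1 to 10.89 also lay below the controls of 10.93 to 11.54, by -0.62 (interval -0.98 to -0.25), which missed the threshold (adjusted p = 0.059) and passed it without 50 mg/kg replicate 2 or 3 (-0.7 and -0.69, adjusted p = 0.039 and 0.045). Phenobarbital 45 mg/kg samples, from 10.47 to 10.74, lay below the lowest control at 10.77 (-0.45, interval -0.8 to -0.11, adjusted p = 0.25).

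By their highest-mean probe sets, Tat and Sds had the widest ranges of the 10 members within the DE-71 controls. Tat, tyrosine aminotransferase, starts the breakdown of tyrosine. In the DE-71 control group alone it ran from 7.5 to 9.78, and its log2 fold changes were 0.02 at phenobarbital 45 mg/kg, 0.17 at BDE-47 50 mg/kg and -0.28 at DE-71 50 mg/kg, with intervals of -0.79 to 0.84, -0.7 to 1.03 and -1.15 to 0.59. At DE-71 15 mg/kg Tat stood at 9.69, 9.93, 10.03 and 8.68, a difference of 0.93 (interval 0.06 to 1.79) that was not called (adjusted p = 0.57). The Tat probe set moved with the RNA quality measure described below. That measure ran from 0.66 to 2.38 in these controls and from 0.65 to 1.07 at 15 mg/kg.

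Sds, serine dehydratase, makes pyruvate from serine. It had differences of -1.06 at phenobarbital 45 mg/kg and -1.11 at both BDE-47 15 and 50 mg/kg, beside -0.82, -0.99 and -1.21 for Hal. With an SE of 0.58 to 0.61 none was called (adjusted p = 0.56, 0.6 and 0.5). Its values ran from 6.2 to 7.97 at phenobarbital 45 mg/kg and from 7.42 to 9.05 in the controls, so the groups overlapped.

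**Figure D3:**
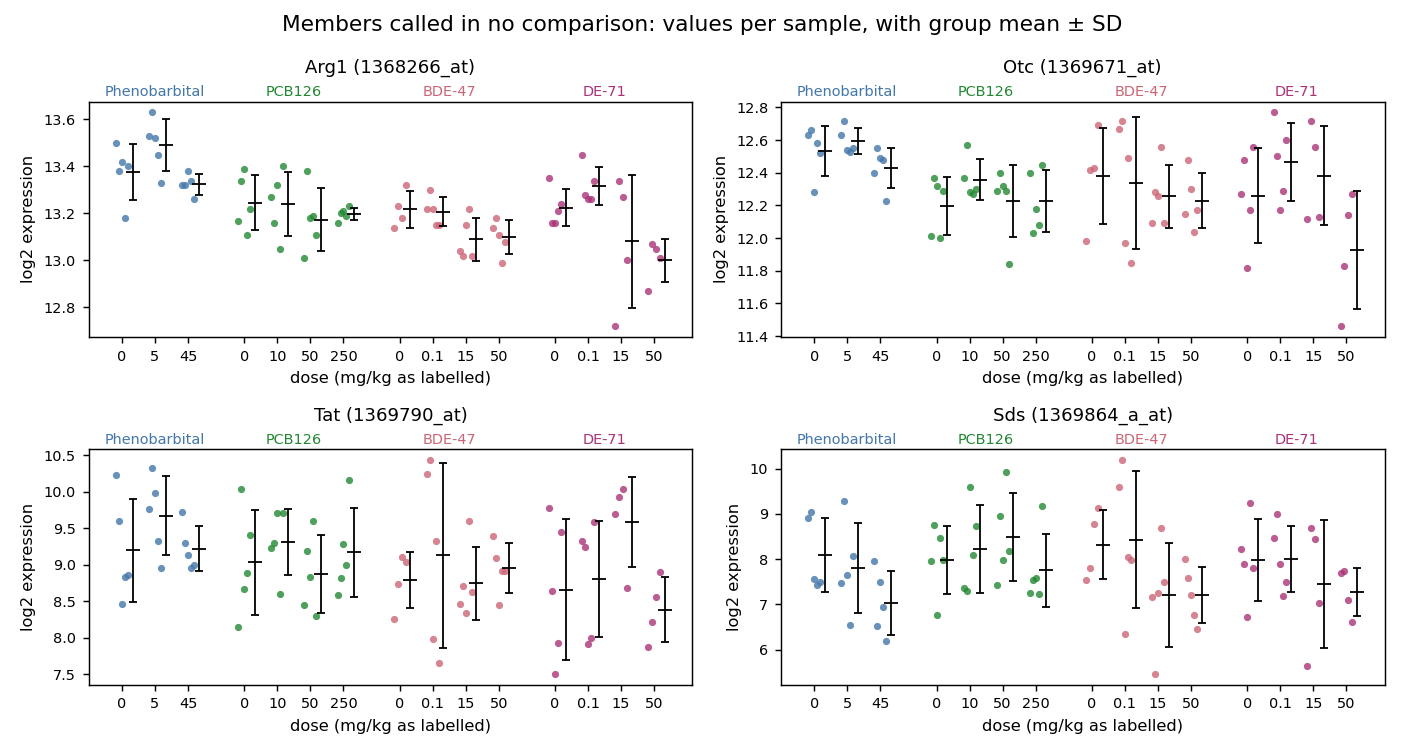
Log2 expression of Arg1, Otc, Tat and Sds (panels) in each sample, by agent and dose, with black lines at the group mean ± SD. Tat and Sds spread over 2.28 and 2.51 log2 units within the DE-71 control group, and none of the 4 genes was called in any comparison.

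For some of the members that fell, the bases before the transcription start are shown for reference. RefSeq's table for rat build GRCr8 had 1 start for Ass1 and 2 each for Glul and Gls2, and the 150 bases before 4 of these starts are printed here, each 5′ to 3′ with matches to the motifs searched in capitals. All of them lie on the plus strand.
Ass1, chr3:35149580-35149729: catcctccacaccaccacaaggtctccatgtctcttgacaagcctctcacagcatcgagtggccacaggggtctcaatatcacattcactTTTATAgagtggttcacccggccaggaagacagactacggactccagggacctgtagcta
Glul, start 1, chr13:68519350-68519499: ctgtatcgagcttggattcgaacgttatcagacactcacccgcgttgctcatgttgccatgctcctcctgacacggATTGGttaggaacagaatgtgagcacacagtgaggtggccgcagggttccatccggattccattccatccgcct
Glul, start 2, chr13:68575916-68576065: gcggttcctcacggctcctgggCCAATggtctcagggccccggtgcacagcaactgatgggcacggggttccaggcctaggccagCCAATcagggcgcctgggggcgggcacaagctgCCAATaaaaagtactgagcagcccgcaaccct
Gls2, start 1, chr7:1201729-1201878: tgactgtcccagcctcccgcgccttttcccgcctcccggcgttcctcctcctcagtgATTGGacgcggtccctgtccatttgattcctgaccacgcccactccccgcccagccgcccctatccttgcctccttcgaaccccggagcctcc
The motifs searched on both strands were the TATA box TATAAA (in 8.0% of 33469 rat promoters over the same 150 bases), the CCAAT box CCAAT (23.5%), the C/EBP motif TTGCNNAA (5.37%), the cAMP response motif TGACG (13.4%), the nuclear receptor motif AGGTCA (8.76%) and the glucocorticoid receptor motif TGTTCT (10.8%). Ass1 had a TATA box on the opposite strand, with its first base at -60 from the start. The second Glul start had CCAAT boxes at -128, -65 and -32, and the first start of Glul and that of Gls2 each had 1 on the opposite strand, at -74 and -93. The second Gls2 start (chr7:1206974-1207123, not printed) and the windows of Cps1 and Asl held 0 matches, and those of Arg1, Sds and Hal were not used here. A match is a description of these letters and no evidence of binding.

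BDE-47 and DE-71 were given at the same 3 doses, so their responses could be compared directly as the DE-71 difference minus the BDE-47 difference. Of the 10 members limma called 0 at 0.1, 15 and 50 mg/kg, where 0.0%, 0.0141% and 0.0703% of all genes were called, and 0 members had an unadjusted p below 0.05. At 50 mg/kg the difference was 0.35 for Hal (interval -0.31 to 1.01), 0.15 for Ass1 (-0.49 to 0.78), 0.34 for Glul (-0.13 to 0.81), -0.13 for Gls2 (-0.65 to 0.38) and -0.21 for Cps1 (-0.45 to 0.04). The bounds of these 5 intervals leave room for differences of 0.45 to 1.01 log2 units, so the responses are not shown to be equal. At 15 mg/kg 9 of 10 differences were positive, which is the DE-71 response being the less negative or more positive, and the intervals of all 10 held 0. That of the second Glul probe set, 1386870_at, did not (0.62, interval 0.08 to 1.17, unadjusted p = 0.025, adjusted p = 0.98).

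**Figure D4:**
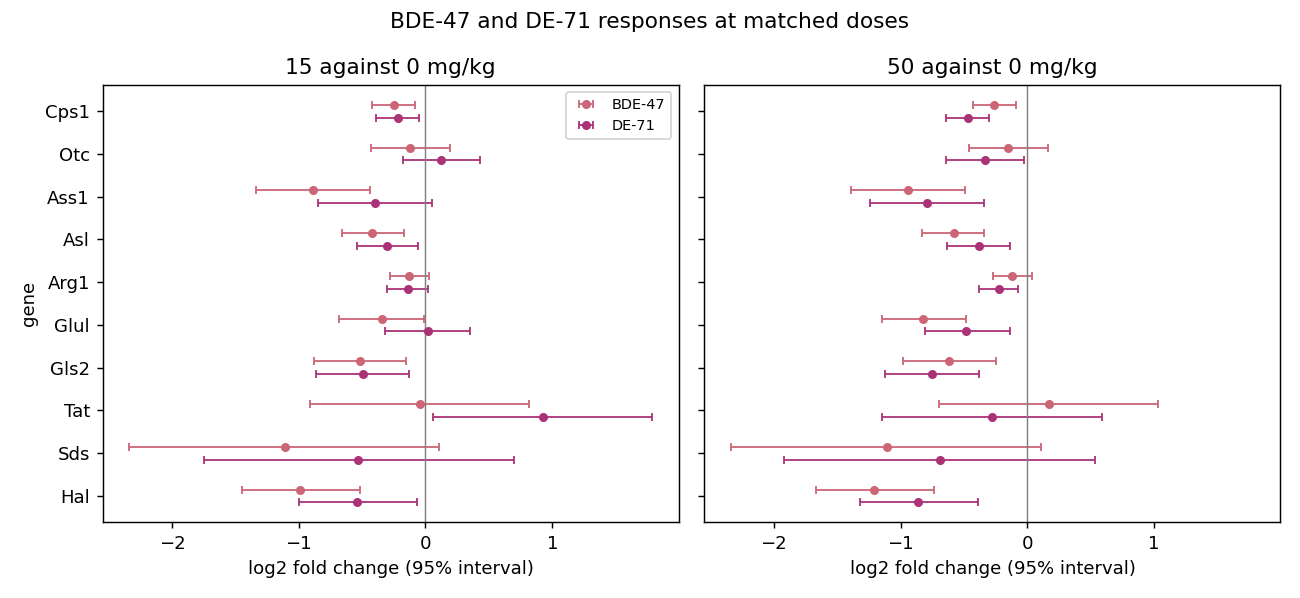
Log2 fold change against 0 mg/kg with its 95% interval for the 10 members, for BDE-47 and DE-71 side by side, at 15 mg/kg (left) and 50 mg/kg (right). At 50 mg/kg the intervals of both agents overlap for every member, and Hal stands at -1.21 and -0.86.

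RNA quality differed between samples and moved with some member probe sets. It was measured as the log2 signal of 3′ minus 5′ control probe sets of Gapdh and beta-actin, which is larger where RNA is broken or copied short. Its group medians ran from 0.73 at phenobarbital 5 mg/kg to 1.46 in the PCB126 controls, and single samples reached 2.86 in the phenobarbital controls, 3.39 in the PCB126 controls and 3.61 at BDE-47 0.1 mg/kg. For the comparisons with calls the medians were 0.84 in controls and 0.76 at phenobarbital 45 mg/kg, 1.27, 1.29 and 1.14 at BDE-47 0, 15 and 50 mg/kg, and 1.03 and 1.05 at DE-71 0 and 50 mg/kg.

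Within groups, over 72 samples, the dimmest Glul probe set 1367633_at fell as this measure rose (Pearson's r = -0.96, Spearman's rho = -0.94, permutation p = 1e-05 for each, the smallest that 100000 permutations give, adjusted p = 2.8e-05 over the 14 probe sets tested). Without the 2 samples farthest from the median r was -0.95, and within the 4 agents it was -0.98 to -0.96. The second Cps1 probe set had r = -0.85 (rho = -0.83), Otc -0.78 (-0.78), Asl 1368916_at -0.77 (-0.69) and Tat -0.69 (-0.65), each with the same permutation and adjusted p and with r of -0.82, -0.75, -0.73 and -0.65 without the 2 farthest samples. Within agents these 4 kept a negative sign, with r from -0.97 to -0.35.

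The probe sets behind most of the calls did not move with it: r was 0.0 for Hal, -0.01 for Gls2, -0.03 for Glul 1367632_at, -0.08 for Cps1 1384334_at and 0.11 for Asl 1367754_s_at (adjusted permutation p = 0.99, 0.99, 0.96, 0.65 and 0.6, rho -0.04, -0.04, -0.06, -0.1 and 0.14). Within single agents r of Gls2 ran from -0.29 to 0.68 and that of Asl 1367754_s_at from -0.4 to 0.71. Ass1 had r = -0.3 (rho = -0.37, adjusted permutation p = 0.042 and 0.007), which was -0.62 within BDE-47 and -0.09 within PCB126.

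**Figure D5:**
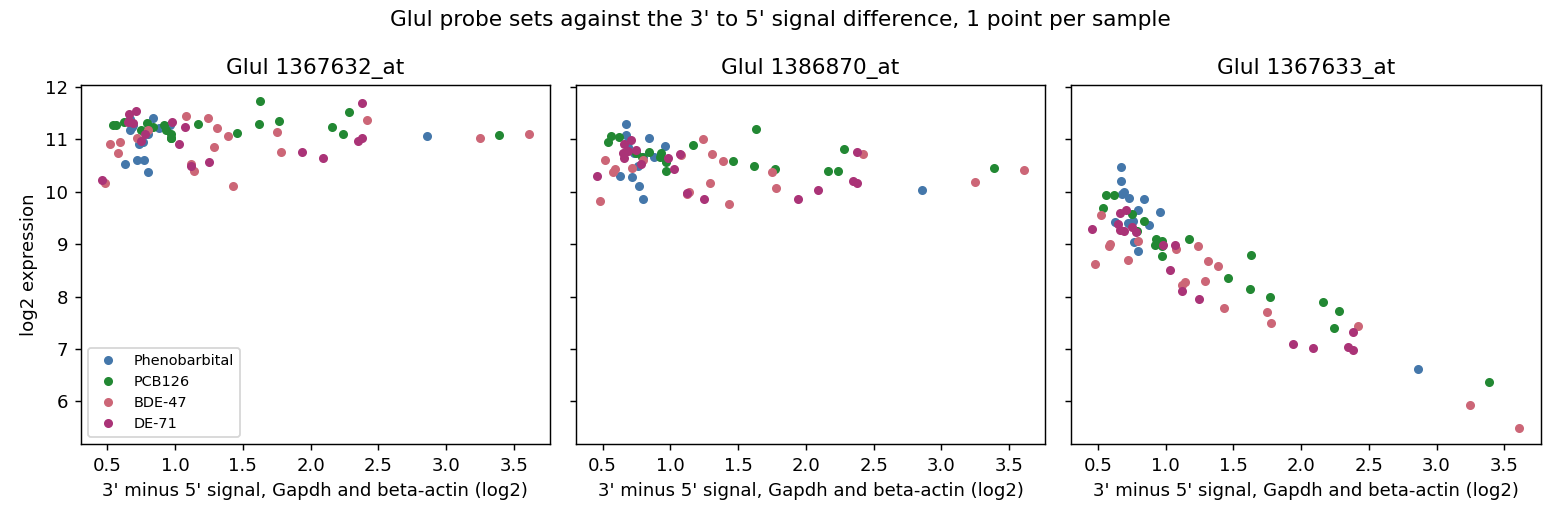
Log2 expression of the 3 Glul probe sets (panels) against the 3′ minus 5′ signal difference of each sample in log2 units, 1 point per sample, coloured by agent. The right panel, 1367633_at, runs down from above 10 to 5.49 as the difference rises to 3.61, while the left panel, 1367632_at, stays between 10.12 and 11.73.

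With this measure as a covariate in the fit, a step chosen after the data were seen, the probe sets of Glul and of Asl came closer together at phenobarbital 45 and BDE-47 50 mg/kg, and those of Cps1 moved further apart. The 3 Glul probe sets then stood at -0.82, -0.79 and -0.65 at BDE-47 50 mg/kg (adjusted p = 0.0012, 0.0024 and 0.032) and at -0.67, -0.7 and -0.67 at phenobarbital 45 mg/kg (adjusted p = 0.01, 0.0059 and 0.021), all called.

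Both Asl probe sets fell in that fit too, 1367754_s_at by 0.61 and 1368916_at by 0.62 at phenobarbital 45 mg/kg (adjusted p = 0.00048 and 0.00042), and both by 0.58 at BDE-47 50 mg/kg (0.002 and 0.0018). For Cps1 the gap widened. The second probe set, 1370151_at, fell by 0.76 at phenobarbital 45 mg/kg, by 0.74 at BDE-47 50 mg/kg and by 1.0 at DE-71 50 mg/kg (adjusted p = 0.0038, 0.0077 and 7e-05), whereas 1384334_at stood at -0.14 and -0.27, not called, in the first 2 and fell by 0.47 in the last. Otc (-0.4, adjusted p = 0.0075) and Arg1 (-0.23, adjusted p = 0.049) were called at DE-71 50 mg/kg with the covariate, and Gls2 at BDE-47 50 mg/kg (-0.62, adjusted p = 0.049). The member calls of the fit without the covariate were all called with it.

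Across samples, members varied together to different degrees within groups (Pearson's r over 72 samples, which share arrays and are given as a description). The highest values were 0.75 for Gls2 and Hal, 0.71 for Otc and Tat, 0.67 for Ass1 and Gls2 and 0.62 for Cps1 and Ass1. The r of Otc and Tat is between 2 probe sets that both move with the 3′ minus 5′ difference. Glul stood apart, with r from -0.21 to 0.11 to each other member. Among all other genes, the deviations of Hal from its controls followed those of Dexi (r = 0.83), Gpld1 (0.8) and Sulf2 (0.79) most closely. Those of Ass1 followed Slc25a22, a mitochondrial glutamate carrier, and Prodh, proline dehydrogenase (0.79 each), and Gldc of the glycine cleavage system (0.74). The probe set 1367754_s_at of Asl followed Mpnd (0.75), Rcl1 (0.74) and Gpld1 (0.73). These include the responses to dose.

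The wider pathway was read from 101 other measured genes in 9 lists. At phenobarbital 45 mg/kg 1 of them rose and 10 fell, where 1.15% of all genes rose and 1.01% fell. At BDE-47 15 mg/kg 1 rose and 3 fell (all genes 0.528% and 0.169%) and at 50 mg/kg 1 rose and 8 fell (1.93% and 1.32%). At DE-71 15 mg/kg 2 rose and 1 fell (0.774% and 0.134%). At DE-71 50 mg/kg 7 rose and 18 fell (4.07% and 4.23%), or 3 and 6 without replicate 2 (1.43% and 0.753%). In the other 6 comparisons limma called 0 of them. The medians over the 101 genes stayed between -0.1 and 0.03 in the comparisons with calls. The same shares of all genes belong beside the counts of each list below.

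Of 19 other genes of the urea cycle and ammonia handling, 3 fell at phenobarbital 45 mg/kg, 1 at BDE-47 50 mg/kg and 6 at DE-71 50 mg/kg, 1 of the last without replicate 2, and 0 rose in any comparison. Slc38a3, a glutamine transporter of the plasma membrane, fell in all 3 comparisons (-0.64, -0.68 and -0.63, SE 0.14 to 0.15, adjusted p = 0.004, 0.0033 and 0.0049), the last -0.43 and not called without replicate 2 (adjusted p = 0.17). Car5a, the mitochondrial carbonic anhydrase that supplies bicarbonate to Cps1, fell by 0.98 at phenobarbital 45 mg/kg (adjusted p = 0.00095). Glud1, glutamate dehydrogenase, fell by 0.72 at DE-71 50 mg/kg (adjusted p = 0.00089), and Oat, the ornithine aminotransferase that lies with Glul around the central vein, by 1.22 (adjusted p = 0.017). Without replicate 2 Glud1 was still called (-0.56, adjusted p = 0.042) and Oat was not (-1.22, adjusted p = 0.082).

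Serine, glycine and threonine genes (18 measured) had 1, 2, 2 and 3 fallen at phenobarbital 45, BDE-47 15 and 50 and DE-71 50 mg/kg, and 1 and 3 risen at DE-71 15 and 50 mg/kg, with 1 risen and 2 fallen in the last without replicate 2. Gnmt, glycine N-methyltransferase, fell by 1.01 at phenobarbital 45 mg/kg and by 0.8 and 0.83 at BDE-47 15 and 50 mg/kg (adjusted p = 0.00014, 0.021 and 0.0045). Agxt, alanine-glyoxylate aminotransferase, fell by 0.75 and 0.84 at BDE-47 15 and 50 mg/kg and by 0.8 at DE-71 50 mg/kg (adjusted p = 0.0096, 0.00051 and 0.00076). In the opposite direction Tdh, threonine dehydrogenase, rose by 1.13 from a low level of 3.79 at DE-71 50 mg/kg (adjusted p = 4.2e-07), where Gldc fell by 0.91 (adjusted p = 0.0086). Without replicate 2 Tdh and Agxt were still called (0.84 and -0.75) and Gldc was not (-0.64, adjusted p = 0.2).

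In proline, lysine and hydroxyproline breakdown (7 measured), 2, 1, 2, 1 and 2 genes fell at phenobarbital 45, BDE-47 15 and 50 and DE-71 15 and 50 mg/kg, 1 in the last without replicate 2. Prodh2, hydroxyproline dehydrogenase, fell in all 5, by 0.59, 0.45, 0.51, 0.59 and 0.72 (SE 0.1 to 0.11, adjusted p = 9.1e-05, 0.029, 0.0022, 0.00048 and 3.1e-06). It was the fallen pathway gene at DE-71 15 mg/kg. Prodh fell by 0.81, 1.03 and 0.98 at phenobarbital 45, BDE-47 50 and DE-71 50 mg/kg (adjusted p = 0.036, 0.0045 and 0.0046), the last -0.78 and not called without replicate 2 (adjusted p = 0.1). Of 11 sulfur amino acid genes 2, 2 and 1 fell in these 3 comparisons, where 1.01%, 1.32% and 4.23% of all genes fell. In the last, 0 fell without replicate 2. Mat1a, which makes S-adenosylmethionine, fell in all 3 (-0.42, -0.31 and -0.37, adjusted p = 0.001, 0.046 and 0.0048, the last -0.31 and 0.093 without replicate 2). Cdo1, cysteine dioxygenase, fell by 0.48 at phenobarbital 45 mg/kg (adjusted p = 0.011) and Cbs, cystathionine beta-synthase, by 0.58 at BDE-47 50 mg/kg (adjusted p = 0.0089).

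Of 19 branched-chain amino acid genes 1, 1, 1 and 2 rose at phenobarbital 45, BDE-47 15 and 50 and DE-71 50 mg/kg and 1 fell in the last, or 1 and 0 without replicate 2. Of all genes 1.15%, 0.528%, 1.93% and 4.07% rose in these comparisons, and 4.23% fell in the last. The list's median was -0.02, 0.11, 0.11 and -0.01. Hibch, an enzyme of valine breakdown, rose in each, by 0.46, 0.6, 0.84 and 0.72 (SE 0.12 to 0.13, adjusted p = 0.032, 0.0096, 1.1e-05 and 0.00011). At DE-71 50 mg/kg Acad8, of the same route, rose by 0.37 and Dbt, a subunit of the branched-chain ketoacid dehydrogenase, fell by 0.5 (adjusted p = 0.043 and 0.0039), neither called without replicate 2 (0.35 and -0.38, adjusted p = 0.19 and 0.11). Of 9 tryptophan genes 1 fell at phenobarbital 45 mg/kg, and 1 rose and 2 fell at DE-71 50 mg/kg, 0 of them called without replicate 2. Of all genes 1.01% fell in the first of these comparisons, and 4.07% rose and 4.23% fell in the second. Kmo, kynurenine 3-monooxygenase, fell by 0.5 in both (adjusted p = 0.0015 and 0.002), Aadat fell by 0.49 and Kyat1 rose by 0.49 at DE-71 50 mg/kg (adjusted p = 0.0078 and 0.011).

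Hgd, homogentisate dioxygenase, was the called gene among 5 of phenylalanine and tyrosine, with a fall of 0.38 at phenobarbital 45 mg/kg (adjusted p = 0.02). Uroc1, urocanase, which acts on the product of Hal, was the called gene among 3 other genes of histidine breakdown, with a fall of 0.64 at DE-71 50 mg/kg (adjusted p = 0.0036), and -0.47 and not called without replicate 2.

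Of 10 transporters of amino acid uptake, 1 fell at BDE-47 50 mg/kg, 1 rose at DE-71 15 mg/kg, and 1 rose and 2 fell at DE-71 50 mg/kg, as without replicate 2. The shares of all genes were 1.32%, 0.774%, 4.07% and 4.23%, in the same order. Slc6a6, the taurine transporter, fell by 2.05 and 2.19 at 50 mg/kg of BDE-47 and DE-71 (adjusted p = 0.0031 and 0.00082). Slc3a2, the heavy chain shared by several amino acid exchangers, rose by 0.74 and 0.64 at DE-71 15 and 50 mg/kg (adjusted p = 0.0016 and 0.0032), and Slc38a4 fell by 0.7 at the higher dose (adjusted p = 0.00048). A separate list held 20 hormonal regulators and targets of fasting or glucocorticoids. Of these 1 fell at phenobarbital 45 mg/kg (1.01% of all genes) and 1 rose at DE-71 15 mg/kg (0.774%). At DE-71 50 mg/kg 2 fell (4.23%), 0 of these without replicate 2. The called genes of this list were, in this order, Tsc22d1 (-1.11, adjusted p = 0.0039), Cebpb, a transcription factor of liver metabolism (0.74, adjusted p = 0.023), Nr3c1, the glucocorticoid receptor (-0.44, adjusted p = 0.011), and Sgk1 (-0.94, adjusted p = 0.042).

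Genes known for their place in the lobule were read as 2 further lists that hold some of the members. Of all genes 1.01%, 0.169%, 1.32% and 4.23% fell at phenobarbital 45, BDE-47 15 and 50 and DE-71 50 mg/kg. The last share was 0.753% without replicate 2. Of 12 periportal genes 1 fell at phenobarbital 45 mg/kg, 1 at BDE-47 15 mg/kg, 3 at BDE-47 50 mg/kg and 5 at DE-71 50 mg/kg (3 without replicate 2), and 0 rose. Besides Hal and Gls2 these were Hsd17b13 (-0.42 at BDE-47 50 and -0.62 at DE-71 50 mg/kg) and Aldh1b1 (-0.85 and -0.91), and Cyp17a1 (-2.04 at DE-71 50 mg/kg). At DE-71 50 mg/kg without replicate 2 Hsd17b13, Cyp17a1 and Gls2 were called, and Aldh1b1 was not (-0.78, adjusted p = 0.12). Of 12 perivenous genes 3, 1 and 4 fell at phenobarbital 45, BDE-47 50 and DE-71 50 mg/kg (1 in the last without replicate 2), and 0 rose. Besides Glul and Oat these included Cyp7a1 (-2.31 at phenobarbital 45 mg/kg), Rgn (-0.59 and -0.6 at phenobarbital 45 and DE-71 50 mg/kg) and Cyp2e1 (-0.46 at DE-71 50 mg/kg), of which Cyp2e1 alone was called at DE-71 50 mg/kg without replicate 2 (-0.34). Genes of both zones thus fell.

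Markers of hepatocytes stood at high levels in every sample, with Alb from 14.71 to 14.94. The log2 of the summed level of 13 hepatocyte markers, Cps1 among them, lay between 17.58 and 17.65 in the phenobarbital controls and 17.55 and 17.61 at 45 mg/kg. It lay between 17.39 and 17.43 in the BDE-47 controls and 17.38 and 17.44 at 50 mg/kg, and between 17.37 and 17.46 in the DE-71 controls and 17.28 and 17.44 at 50 mg/kg. The brightest markers make up most of this sum, so it hardly shows a change in a dimmer one. Apoa2, with a mean of 11.07 beside 14.8 for Alb, rose by 1.65 and 2.13 at BDE-47 15 and 50 mg/kg. At DE-71 15 and 50 mg/kg it rose by 1.75 and 2.46. In these comparisons 0.528%, 1.93%, 0.774% and 4.07% of all genes rose. Serpina1 fell with Cps1 at DE-71 50 mg/kg (-0.22, adjusted p = 0.039), where 4.23% of all genes fell. Without replicate 2 Serpina1 stood at -0.08 and was not called (adjusted p = 0.71).

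Of 10 Kupffer cell and macrophage markers 6 fell at BDE-47 50 mg/kg (1.32% of all genes), where 4 members fell, and 1 at 15 mg/kg (0.169% of all genes). Among them were C1qc (-0.73 at 50 mg/kg), C1qa (-0.6), Csf1r (-0.68) and Clec4f (-0.8). Their summed log2 level was 12.09 to 12.57 in the BDE-47 controls, 11.36 to 12.29 at 15 mg/kg and 11.41 to 11.95 at 50 mg/kg. It was 11.94 to 12.38 and 11.87 to 12.38 at phenobarbital 0 and 45 mg/kg and 11.69 to 12.29 and 11.98 to 12.53 at DE-71 0 and 50 mg/kg, where 0 fell. The part of this difference in the falls of the members was not tested.

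Epcam rose in all 5 comparisons with called pathway genes (0.74 to 1.35), 1 of 6 cholangiocyte markers, while Krt7 stayed at 3.01 to 4.19 and Krt19 at 4.32 to 6.17 in every sample. The shares of all genes that rose were 1.15% at phenobarbital 45 mg/kg, 0.528% and 1.93% at BDE-47 15 and 50 mg/kg and 0.774% and 4.07% at DE-71 15 and 50 mg/kg. At DE-71 50 mg/kg 2 of 10 stellate cell markers (Lrat and Pdgfrb) and 1 of 7 endothelial markers (Kdr) fell and 1 of 10 lymphocyte markers (Prf1) rose, and without replicate 2 only the last was called. In that comparison 4.23% of all genes fell and 4.07% rose. Of 4 neutrophil, 7 erythroid and 8 pancreas and gut markers limma called 0 in any comparison.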

How the data were processed

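The deposited table holds log2 expression per probe set, made with RMA per the submitters' processing notes, with no version stated. Of 31099 probe sets 57 controls were left out. Genes were named from GEO's annotation of the array, in which 20826 probe sets have 1 gene symbol, 436 several and 9780 none, and no probe set with several symbols names a member. Genome positions of probe sets are not given, since the files name no build. Array medians were 4.816 to 5.036.

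A model with 15 group means was fitted to 72 samples by lmFit and eBayes of limma 3.58.1 (R 4.3.3), with 57 residual degrees of freedom and 4.3 from the prior, with each dose against 0 mg/kg of its own agent and the DE-71 minus the BDE-47 difference at each dose. Near-identical arrays had a root mean square difference below 0.3 over 300 genes, those of highest variance among genes averaging 7 or more. No dim probe sets were left out. Intervals are 95% intervals from limma. P-values are two-sided. Those of limma set a difference against a spread estimated from all 15 groups, not from the compared groups alone. The samples may not be independent litters. What limits the precision was not tested. The fit was tested on simulated data.

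The members, the pathway and marker lists, the tests and the alternatives were chosen with earlier results of these data known. The text names all members, up to 4 called genes per list by adjusted p, and for 3 members the 3 genes most like them. Replicate numbers were not used as pairs.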

Additional observations from a re-analysis of the deposited data

Results flagged for a closer look

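Of 210 groups of 4 or 5 samples tested over the 14 probe sets, 8 held a sample whose gap to the next was above Dixon's critical value for the group, and chance alone flags about 1 in 20. For Cps1 1370151_at, phenobarbital 0 mg/kg replicate 3 stood at 11.71 with the next at 12.7, and for Glul 1367633_at the same sample stood at 6.61 with the next at 9.61. Its 3′ minus 5′ difference was 2.86 against a group median of 0.84. For Otc, PCB126 50 mg/kg replicate 5 stood at 11.84 with the next at 12.29, and its 3′ minus 5′ difference was 2.16 against a median of 0.97.

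For Asl, phenobarbital 45 mg/kg replicate 2 was lowest by both probe sets, at 9.36 with the next at 9.68 (1367754_s_at) and at 9.34 with the next at 9.76 (1368916_at), at a 3′ minus 5′ difference of 0.77 beside a median of 0.76. By 1367754_s_at, BDE-47 50 mg/kg replicate 1 stood at 9.7 above the next at 9.51, and DE-71 0.1 mg/kg replicate 3 at 10.51 above the next at 10.14. For Sds, PCB126 250 mg/kg replicate 5 stood at 9.17 above the next at 7.59.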

How the results depend on the processing

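Over the 14 member probe sets, 3671 alternative values stayed on the same side of the threshold, 50 lost a call and 31 gained a call. No value that was called in either fit changed direction. Direction was not compared for values called in neither fit. For members called, the 3 at phenobarbital 45 mg/kg became 1 by the other probe sets. The 2 at BDE-47 15 mg/kg became 1 with only that agent's samples in the fit and 0 without the 4 arrays of the cross-dose pairs. The 5 at DE-71 50 mg/kg became 0 with only that agent's samples and 3 by the other probe sets. With 1 sample left out, the members called ranged from 2 to 3 at phenobarbital 45 mg/kg, 0 to 2 at BDE-47 15 mg/kg, 3 to 5 at BDE-47 50 mg/kg and 2 to 5 at DE-71 50 mg/kg (2 without control replicate 4 or dosed replicate 2, 3 without control replicate 1). At BDE-47 15 mg/kg it was 0 without control replicate 1, 5 or the averaged 3 and 4 or dosed replicate 1 or 3, and 1 without control replicate 2 or dosed replicate 2 or 5.

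For the 101 other pathway genes, the 11 called at phenobarbital 45 mg/kg became 18 with the 3′ minus 5′ covariate. The 4 at BDE-47 15 mg/kg became 2 without the 4 arrays. The 9 at BDE-47 50 mg/kg became 18 with all 74 arrays, 17 among probe sets with a mean of at least 6 and 17 with the covariate. The 3 at DE-71 15 mg/kg became 5 with all 74 arrays, 5 with the mean of at least 6, 5 with 1 probe set per gene and 1 with only that agent's samples. The 25 at DE-71 50 mg/kg became 6 with only that agent's samples. The 0 of the difference between the agents at 50 mg/kg became 1 without the 4 arrays. With 1 sample left out, the counts ranged from 6 to 12 at phenobarbital 45 mg/kg (6 without control replicate 1, 7 without control replicate 2 or dosed replicate 1 or 5), 1 to 3 at BDE-47 15 mg/kg (1 without the averaged control replicates 3 and 4, 2 without control replicate 1, 2 or 5 or dosed replicate 1 or 3), 7 to 11 at BDE-47 50 mg/kg, 1 to 4 and 9 to 32 at DE-71 15 and 50 mg/kg (1 without the averaged 15 mg/kg replicates 1 and 2, 9 without 50 mg/kg replicate 2) and 0 to 1 for the difference at 50 mg/kg (1 without DE-71 50 mg/kg replicate 4). The fits without the 4 arrays and with the covariate were chosen after seeing the data. The shares of all genes called are not given for the fits of this section, except that without DE-71 50 mg/kg replicate 2. The cause of these changes was not tested.

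Whether replicate numbers pair samples is not known, since the labels name no litter. Deviations of same-numbered samples had a mean correlation of 0.012, 0.029, -0.011 and 0.076 within phenobarbital, PCB126, BDE-47 and DE-71, with single pairs from -0.387 to 0.463. In the same order, 3 of 15, 13 of 30, 9 of 30 and 11 of 27 pairs were above 0.1. A mean this low cannot exclude pairing of some numbers. The fit with the replicate number as a block also took all 74 arrays as separate samples. It called 16 other pathway genes at BDE-47 50 mg/kg and 6 at DE-71 15 mg/kg, where the 74 arrays with no block gave 18 and 5. The members called in that fit were 3, 2, 6 and 5 at phenobarbital 45, BDE-47 15 and 50 and DE-71 50 mg/kg, and 3, 2, 5 and 5 with the 74 arrays and no block.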
